A study of Homo sapiens with 6 samples.

Results

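A set of 9 genes that mark primitive and visceral endoderm was followed in H9 cells after an antisense oligonucleotide against LINE-1, and 3 of them, GATA6, SOX17 and AFP, had more RNA than in the sense control, while GATA4, PDGFRA and FRZB were not called and HNF4A, APOA1 and RSPO3 had too few reads for the main test. The 9 genes were taken by symbol from the 53712 genes of the count table, and all 9 were found. H9 cells, an established line of human embryonic stem cells, were grown in PXGL, a medium for naive pluripotent cells, and the study's design text calls them naive. The ASO-L1 group received 25 nM of the antisense oligonucleotide and the SO-L1 group 25 nM of the sense oligonucleotide, with 3 libraries in each, made 48 hours after transfection from unsorted cells. Both groups also had 0.7 uM trans-ISRIB, an inhibitor of the integrated stress response, 5 uM of the caspase inhibitor emricasan and 10 uM of the ROCK inhibitor Y-27632, all removed after 24 hours, and no untransfected library was analysed here. The labels number the 3 libraries of a group but do not say whether they came from separate cultures, and the p-values cover the spread among these libraries alone, which may be technical.

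Primitive endoderm, or hypoblast, is the layer that forms beside the epiblast in the blastocyst and later lines the yolk sac. GATA6, GATA4 and SOX17 are transcription factors of its identity and PDGFRA is a receptor on its surface, while its derivative, the visceral endoderm, makes serum proteins such as AFP and APOA1 under factors that include HNF4A. In the mouse blastocyst, FGF4 from the epiblast acts through FGF receptors and ERK to favour Gata6 over Nanog. PXGL medium holds a MEK inhibitor, which acts on this same route, along with a tankyrase inhibitor that dampens Wnt signalling.

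Promoter windows from RefSeq (GRCh38.p14, 250 bases before to 50 after a start site) were found for 6 of the 9 genes, in 8 windows. Those shown belong to GATA6 and AFP, which rose, and to one of the start sites of HNF4A, which shares a motif with AFP. Capitals mark letters matched by any of 5 motifs searched on both strands. Those for GATA factors were AGATAA and, as the other spelling, TGATAA, the forkhead motif was TGTTTAC, the TATA box was TATAAA, and the last was an HNF1-type motif. No match overlapped another in these windows, and these motifs were chosen with the sequences in view. The windows are chr18:22169339-22169638 for GATA6, chr4:73435971-73436270 for AFP and chr20:44355449-44355748 for HNF4A, all on the plus strand.
GATA6: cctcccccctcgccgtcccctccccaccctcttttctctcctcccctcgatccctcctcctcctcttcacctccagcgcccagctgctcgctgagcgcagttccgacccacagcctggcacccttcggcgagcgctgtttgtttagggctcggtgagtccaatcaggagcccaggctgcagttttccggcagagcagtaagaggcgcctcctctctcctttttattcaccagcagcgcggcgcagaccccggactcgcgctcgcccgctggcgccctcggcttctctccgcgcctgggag
AFP: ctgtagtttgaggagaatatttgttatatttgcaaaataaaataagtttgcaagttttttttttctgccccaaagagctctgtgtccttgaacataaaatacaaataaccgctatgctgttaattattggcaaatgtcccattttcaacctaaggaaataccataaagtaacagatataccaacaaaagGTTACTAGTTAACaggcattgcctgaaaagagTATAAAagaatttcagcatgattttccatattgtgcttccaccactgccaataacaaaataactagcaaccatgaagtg
HNF4A: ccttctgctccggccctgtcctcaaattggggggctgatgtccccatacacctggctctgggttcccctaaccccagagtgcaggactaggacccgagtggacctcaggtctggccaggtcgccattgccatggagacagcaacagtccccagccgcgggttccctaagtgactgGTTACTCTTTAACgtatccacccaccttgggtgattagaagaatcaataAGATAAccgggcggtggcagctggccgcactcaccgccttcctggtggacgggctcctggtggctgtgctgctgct

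The windows of GATA6 and AFP had little in common in these letters, and no window is shown for SOX17, which also rose. The AFP window had 33% G and C bases, a TATAAA whose first base lay at -29 from the start site and the HNF1-type motif at -61. The GATA6 window had 66.7% G and C bases and none of the motifs, against a median of 58.7% over all 35116 windows. The HNF1-type motif was in 0.225% of all windows and in those of AFP and HNF4A (at -75) among the members. AGATAA was in 10.3% of all windows and in those of FRZB and HNF4A (at -26 in the window shown), TGATAA in 7.53% and in the other HNF4A window, TGTTTAC in 3.42% and in no member's, and TATAAA in 11.5% and in that of AFP alone. A match describes the letters of a window and is not a binding site.

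The libraries held 23330875 to 31164287 counts. Levels are given as CPM, the reads of a gene relative to its library's total after scaling by the TMM method, without correction for gene length, and fold changes come from edgeR's quasi-likelihood test on all 16873 genes with enough reads, with Benjamini-Hochberg adjustment over all of them and calls at an adjusted p under 0.05. The level of LINE-1 RNA itself was not analysed here. The pluripotency gene POU5F1 was at 1136 ± 79.4 CPM in ASO-L1 and 1265 ± 67.7 CPM in SO-L1 libraries (SD, n = 3 each). Among the markers of the naive state, KHDC3L was at 25.0 ± 9.34 CPM in ASO-L1 and 65.7 ± 12.9 CPM in SO-L1 libraries, DNMT3L at 57.5 ± 7.24 CPM in ASO-L1 and 79.9 ± 2.9 CPM in SO-L1 libraries and SUSD2 at 20.9 ± 1.11 CPM in ASO-L1 and 29.98 ± 3.7 CPM in SO-L1 libraries, all called lower. The direction was not shared by all naive markers, since of 13 tested 2 were called higher and 5 lower. Those higher were KLF4 (log2 fold change 0.72 ± 0.21, adjusted p = 0.0353 by edgeR) and TFCP2L1 (0.47 ± 0.09, 0.00511). KLF17 was at 0.396 ± 0.146 CPM in ASO-L1 and 0.743 ± 0.196 CPM in SO-L1 libraries, KHDC1L had 7 reads in all ASO-L1 and 2 in all SO-L1 libraries, and ARGFX had 5 in ASO-L1 and 11 in SO-L1 libraries. DPPA5 was at 16.97 ± 7.27 CPM in ASO-L1 and 34.2 ± 10.4 CPM in SO-L1 libraries, with overlap between the groups. Neither DPPA5 (adjusted p = 0.107 by edgeR) nor KLF17 (0.103) was called in the main fit. Of these naive markers KHDC1L and ARGFX were thus near the lowest levels that this depth can measure, and KLF17 was low.

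Across all tested genes 33.7% were called, 18.0% higher and 15.7% lower in ASO-L1 libraries. Of the 9 members, 6 had enough reads, 3 of these were called higher and none lower. SOX17 passed the read filter only through the ASO-L1 libraries, which had 10 or more reads each while no SO-L1 library did, so it could enter the test only by being higher there. With the replicate number as a block 45.7% of all genes were called, 23.3% higher and 22.5% lower, and among the members again GATA6, SOX17 and AFP. In bulk RNA more cells with a transcript and more RNA per cell cannot be told apart.

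**Figure D1:**
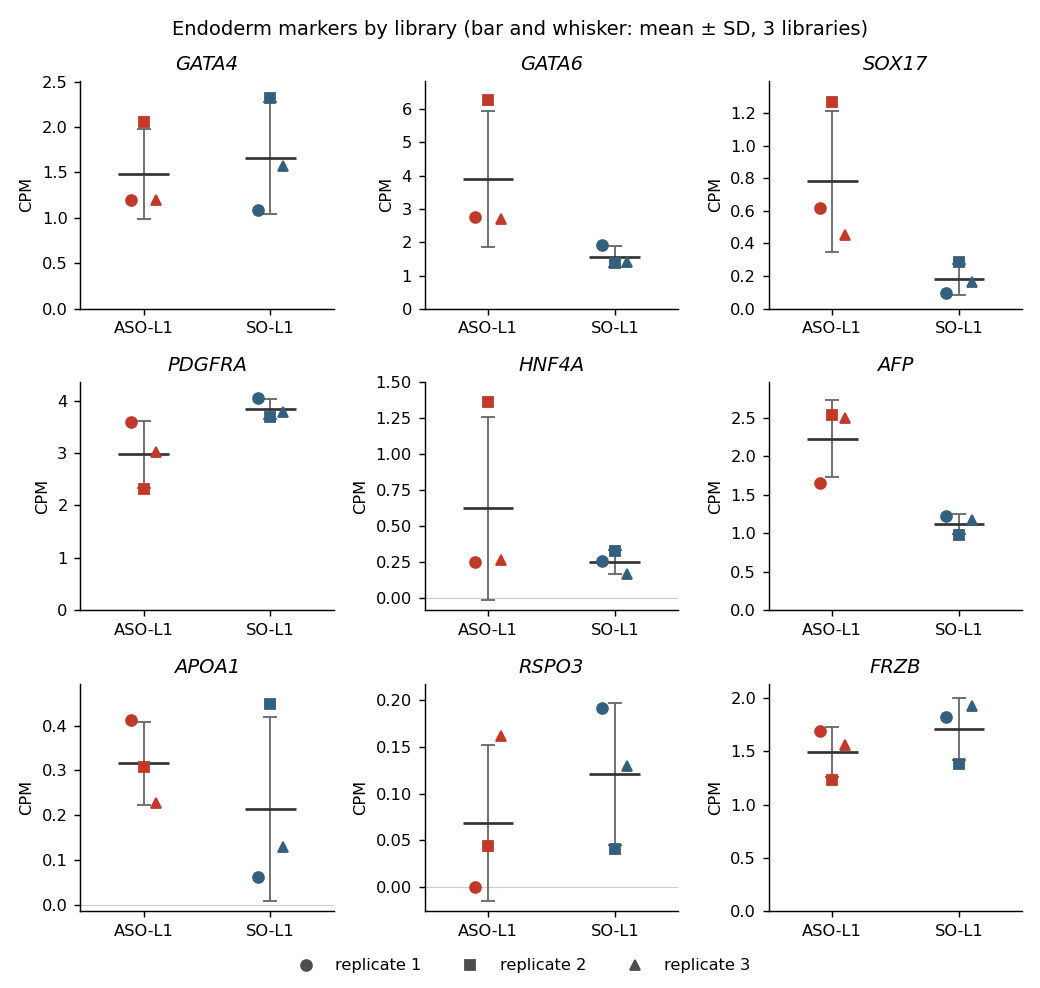
CPM (vertical axis, from 0, with a separate scale for each gene) of the 9 genes in ASO-L1 (left of each panel, red) and SO-L1 libraries (right, blue), where the point shape gives the replicate number and bar and whisker the mean and SD of 3 libraries. For GATA6, SOX17 and AFP every ASO-L1 library lies above every SO-L1 library, and for GATA6, SOX17 and HNF4A the highest point is ASO-L1 replicate 2, at 6.27, 1.27 and 1.36 CPM.

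GATA6, the zinc finger factor that acts earliest in primitive endoderm fate in the mouse, had 67, 143 and 83 reads in ASO-L1 replicates 1 to 3 and 60, 34 and 43 reads in SO-L1 replicates 1 to 3. This corresponds to 2.77, 6.27 and 2.69 CPM in ASO-L1 and 1.92, 1.38 and 1.40 CPM in SO-L1 libraries. The groups did not overlap, as was the case for 50.9% of all tested genes (25.8% with ASO-L1 higher), and ASO-L1 replicate 2 stood well above the other ASO-L1 libraries. GATA6 averaged 3.91 ± 2.04 CPM in ASO-L1 and 1.57 ± 0.305 CPM in SO-L1 libraries (SD, n = 3 each), a log2 fold change of 1.29 ± 0.35 (SE) with an adjusted p of 0.0200 by edgeR. Without replicate 2 of both groups the log2 fold change was 0.71 (adjusted p = 0.00981), and without ASO-L1 replicate 2 alone 0.79. The call was lost when SO-L1 replicate 2 (adjusted p = 0.0548), SO-L1 replicate 3 (0.0765) or replicate 1 of both groups (0.0555) was left out.

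GATA4, the close relative of GATA6 that follows it in this lineage, had 29, 47 and 37 reads in ASO-L1 libraries and 34, 57 and 48 reads in SO-L1 libraries. That is 1.2, 2.06 and 1.2 CPM in ASO-L1 and 1.09, 2.32 and 1.57 CPM in SO-L1 libraries, so the groups overlapped and replicate 2 was the highest in both. The log2 fold change was -0.15 ± 0.32 (SE) with an adjusted p of 0.739 by edgeR, and it was 0.14 without SO-L1 replicate 2.

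Within a library the ratio of reads of these GATA genes does not depend on scaling. The ratio of GATA6 to GATA4 reads was 2.31, 3.04 and 2.24 in ASO-L1 and 1.76, 0.596 and 0.896 in SO-L1 libraries. All ASO-L1 ratios lay above all SO-L1 ratios, with a difference of 1.36 between the group means on the log2 scale. A two-sided exact permutation test gave p = 0.1, the smallest value that 3 against 3 libraries allow. GATA5, a further GATA factor of endoderm, was at 2.89 ± 0.412 CPM in ASO-L1 and 2.15 ± 0.456 CPM in SO-L1 libraries (SD, n = 3 each) and was not called (log2 fold change 0.42 ± 0.21).

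**Figure D2:**
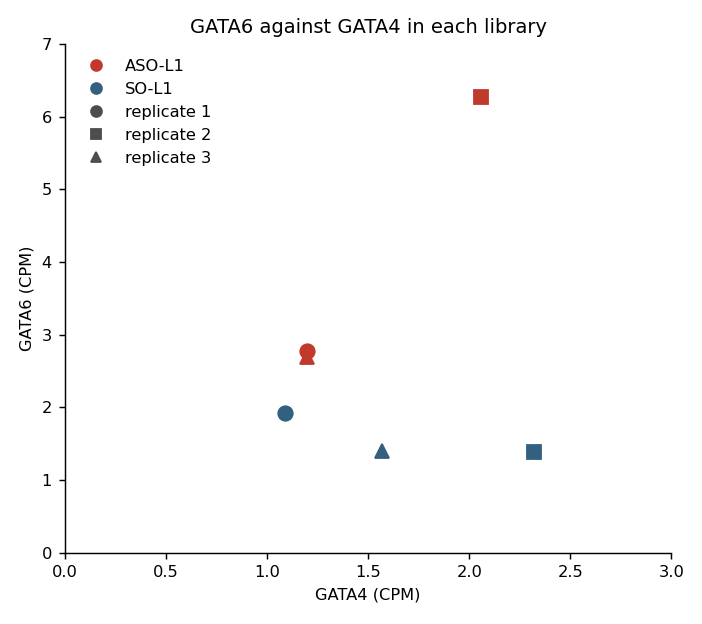
GATA6 (vertical axis, CPM) against GATA4 (horizontal axis, CPM) in each of the 6 libraries, with ASO-L1 in red, SO-L1 in blue and the replicate number as the point shape. The ASO-L1 points lie at 2.69 CPM of GATA6 or above and the SO-L1 points at 1.92 CPM or below, while their GATA4 values overlap.

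SOX17, an HMG-box factor of primitive and definitive endoderm, had 15, 29 and 14 reads in ASO-L1 and 3, 7 and 5 reads in SO-L1 libraries. The levels were 0.619, 1.27 and 0.454 CPM in ASO-L1 and 0.0960, 0.285 and 0.163 CPM in SO-L1 libraries, with no overlap. Its log2 fold change was 2.10 ± 0.54 (SE) with an adjusted p of 0.0142 by edgeR, from a total of 58 reads in ASO-L1 and 15 in SO-L1 libraries. The call was lost when SO-L1 replicate 1 (adjusted p = 0.0737), SO-L1 replicate 3 (0.0579) or replicate 1 of both groups (0.101) was left out, and kept when replicate 2 of both was (log2 fold change 1.997, adjusted p = 0.00598).

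HNF4A, the nuclear receptor that drives the visceral endoderm and liver programme, had 6, 31 and 8 reads in ASO-L1 and 8, 8 and 5 reads in SO-L1 libraries. ASO-L1 replicate 2 thus held 68.9% of the 45 ASO-L1 reads, and the other ASO-L1 libraries lay within the range of the SO-L1 libraries. With no read filter HNF4A was called higher (log2 fold change 1.27 ± 0.49, adjusted p = 0.0490 by edgeR over 33437 genes, of which 18.3% were called). When replicate 2 of both groups was left out as well, a setting chosen after seeing the data, the log2 fold change was 0.24 and the adjusted p 0.855.

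AFP encodes alpha-fetoprotein, the main serum protein of the yolk sac and fetal liver. It had 40, 58 and 77 reads in ASO-L1 and 38, 24 and 36 reads in SO-L1 libraries, or 1.65, 2.54 and 2.50 CPM in ASO-L1 and 1.22, 0.977 and 1.17 CPM in SO-L1 libraries. The groups did not overlap, and replicate 1 was the lowest of the ASO-L1 libraries. AFP averaged 2.23 ± 0.503 CPM in ASO-L1 and 1.12 ± 0.128 CPM in SO-L1 libraries (SD, n = 3 each), a log2 fold change of 0.98 ± 0.24 (SE) with an adjusted p of 0.0114 by edgeR. It kept its call in every setting tried except without replicate 3 of both groups (log2 fold change 0.92, adjusted p = 0.0840).

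APOA1, the main protein of high-density lipoprotein, had 10, 7 and 7 reads in ASO-L1 and 2, 11 and 4 reads in SO-L1 libraries. The highest and the lowest library were both SO-L1. With no read filter its log2 fold change was 0.60 ± 0.60, with an adjusted p of 0.576 by edgeR.

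PDGFRA, the receptor for PDGF ligands that is also a surface marker of the lineage, was not called. It had 87, 53 and 93 reads in ASO-L1 and 127, 91 and 116 reads in SO-L1 libraries, or 3.59, 2.32 and 3.02 CPM in ASO-L1 and 4.06, 3.70 and 3.78 CPM in SO-L1 libraries. All ASO-L1 libraries lay below all SO-L1 libraries, with ASO-L1 replicate 2 the lowest, but the log2 fold change of -0.37 ± 0.18 (SE) was not called (adjusted p = 0.140 by edgeR, and 0.0690 with the replicate number as a block). FIP1L1, which lies upstream of PDGFRA on chromosome 4, was at 61.1 ± 1.34 CPM in ASO-L1 and 53.6 ± 1.1 CPM in SO-L1 libraries (0.19 ± 0.07, adjusted p = 0.0458), a call lost in 8 of 15 alternatives. How reads over overlapping or antisense genes were assigned is not given in the sources used here.

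RSPO3 and FRZB encode secreted proteins that act on Wnt signalling in opposite ways, RSPO3 as an agonist that stabilises Frizzled receptors and FRZB as a decoy that binds Wnt ligands. RSPO3 had 0, 1 and 5 reads in ASO-L1 and 6, 1 and 4 reads in SO-L1 libraries, and the count of 0 in ASO-L1 replicate 1 allows up to 0.124 CPM (3 counts, counting error only). No difference in RSPO3 was detectable at this depth (adjusted p = 0.630 with no read filter). FRZB had 41, 28 and 48 reads in ASO-L1 and 57, 34 and 59 reads in SO-L1 libraries. The FRZB levels were 1.69, 1.23 and 1.56 CPM in ASO-L1 and 1.82, 1.38 and 1.92 CPM in SO-L1 libraries, lower in ASO-L1 at each replicate number but with overlap between the groups. The log2 fold change was -0.20 ± 0.23 (SE), with an adjusted p of 0.521 by edgeR.

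**Figure D3:**
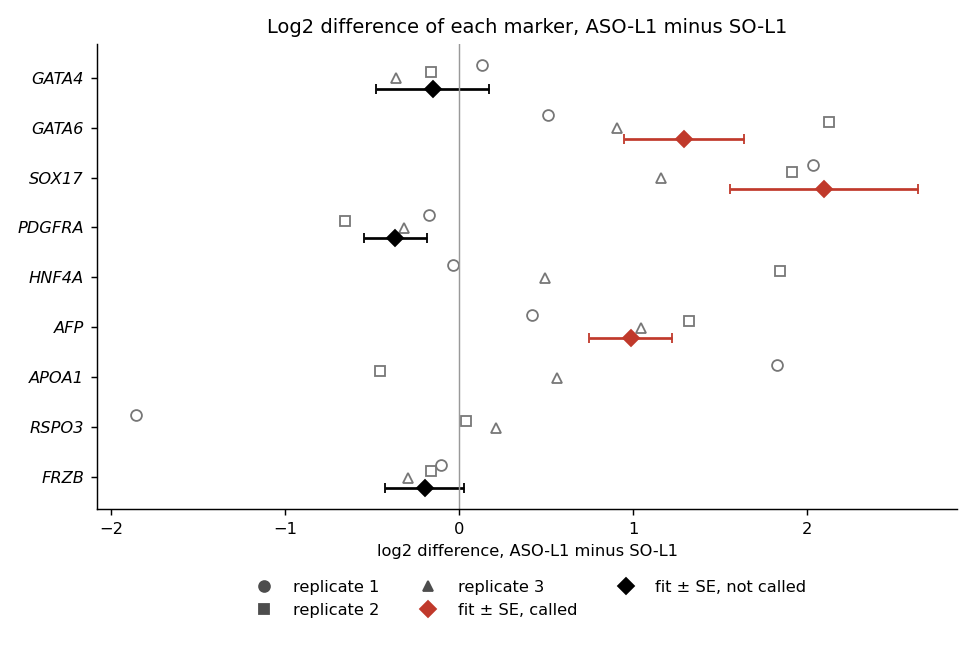
Log2 difference, ASO-L1 minus SO-L1 (horizontal axis), for the 9 genes. Open symbols give log2 CPM differences between libraries of the same replicate number, and diamonds the edgeR log2 fold change with its SE for the 6 tested genes (red where called); GATA6, SOX17 and AFP lie right of 0 at all replicate numbers, PDGFRA and FRZB left of 0 at all, and the others on both sides.

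The authors' deposited comparison table gives the same 3 genes an adjusted p under 0.05, as it does for 21.4% of its 20964 genes. In the authors' deposited table the log2 fold change was 1.15 for GATA6 (adjusted p = 0.0335), 1.96 for SOX17 (0.0311) and 0.952 for AFP (0.0246). The authors' deposited table lists -0.162 for GATA4 (0.761), -0.391 for PDGFRA (0.172), 0.787 for HNF4A (0.428), 0.923 for APOA1 (0.339) and -0.210 for FRZB (0.590). These values come from the same libraries and add no independent measurement.

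Profiles over the 6 libraries were compared by the root mean square difference of mean-centred log2 CPM among named genes whose average log2 CPM was 1 or more. For GATA6 the closest of 11795 genes were the histone gene HIST1H2BG (0.146) and NPTX2, a neuronal pentraxin (0.149). For SOX17 they were GPR50, an orphan receptor gene (0.148), and FOSB, an immediate-early AP-1 gene (0.160). For AFP they were MORF4L2-AS1 (0.137) and SMARCD3, a subunit of the SWI/SNF remodelling complex (0.146). Values are in log2 units and describe likeness only.

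Among other transcription factors of endoderm 3 of 14 tested genes rose and none fell, where 18.0% of all tested genes were called higher and 15.7% lower. The counts of the lists below are to be read beside these same shares. The median log2 fold change was 0.25 against -0.01 for all tested genes. HHEX, a homeobox factor of anterior visceral endoderm and foregut, was at 1.57, 4.69 and 1.46 CPM in ASO-L1 and 0.256, 0.610 and 0.391 CPM in SO-L1 libraries (2.62 ± 0.56). It too passed the read filter only through the ASO-L1 libraries, so its call adds no support to the count. LHX1, a LIM homeobox factor of anterior visceral endoderm, rose by 1.82 ± 0.44 on the log2 scale. The filter scales its minimum of 10 reads to library size, and SO-L1 replicate 3, with 11 LHX1 reads (0.359 CPM), fell below it. LHX1 thus also passed only through the ASO-L1 libraries, and its call adds no support to the count. FOXA2, a forkhead factor of endoderm, was at 0.911 ± 0.360 CPM in ASO-L1 and 0.654 ± 0.216 CPM in SO-L1 libraries (SD, n = 3 each) and was not called, nor were SOX7 (0.38 ± 0.26), EOMES (-0.07 ± 0.50) and MIXL1 (0.25 ± 0.13). The call of LHX1 was lost without SO-L1 replicate 1 (adjusted p = 0.0621) or 3 (0.0529) or replicate 1 of both groups (0.0894), and that of HHEX without replicate 1 of both (0.0504). MIXL1 was called without SO-L1 replicate 2 (0.0459) or replicate 2 of both groups (0.00105).

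Markers of anterior visceral endoderm, the signalling centre that patterns the epiblast, had 2 of 8 tested genes higher and 1 lower. CER1, a secreted antagonist of Nodal, BMP and Wnt ligands, was at 56.0, 101 and 53.9 CPM in ASO-L1 and 11.7, 21.9 and 9.95 CPM in SO-L1 libraries. Every ASO-L1 library lay above every SO-L1 library and replicate 2 was the highest in both groups (2.29 ± 0.42, adjusted p = 0.0132 by edgeR, and 0.0843 without replicate 3 of both groups). BMP2 rose by 1.14 ± 0.23 and AMOT, a regulator of YAP, fell by 0.62 on the log2 scale. SHISA2, which retains FGF and Wnt receptors, had 0.79 ± 0.28 and was not called (adjusted p = 0.0577, and 2.60e-04 with the replicate block). LEFTY1, LEFTY2 and NODAL had log2 fold changes of 0.13 ± 0.09, -0.00021 and 0.09 ± 0.07, none of them called. Without replicate 2 of both groups all 8 genes of this list were called, 6 higher and 2 lower.

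Of the serum protein and transport genes of the yolk sac and liver, 25 were in the table and 9 were tested. Of these 1 was higher and 2 were lower, a share close to the 33.7% called among all tested genes. RBP4, the plasma retinol carrier, was at 1.69, 1.80 and 0.909 CPM in ASO-L1 and 0.384, 0.610 and 0.457 CPM in SO-L1 libraries (1.59 ± 0.35). TF, the transferrin gene, was at 1.60 ± 0.443 CPM in ASO-L1 and 3.11 ± 0.809 CPM in SO-L1 libraries (-0.96 ± 0.26), and APOC1 at 18.3 ± 1.26 CPM in ASO-L1 and 24.2 ± 0.589 CPM in SO-L1 libraries (SD, n = 3 each). APOB had 0.56 ± 0.21 and was called with the block (adjusted p = 0.0201) but not without it (0.0578), and the list then had 2 higher and 3 lower. APOC3, FGB, FGG, FABP1 and SLC2A2 had no read in any library. ALB and TTR, abundant products of mature visceral endoderm, had 1 read each in all ASO-L1 libraries and 0 in all SO-L1 libraries. The call of TF was lost without SO-L1 replicate 1 (0.0941) or 3 (0.0555), and without replicate 1 of both groups no gene of the list was called.

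Basement membrane genes are expressed strongly by primitive and parietal endoderm. Of 16 tested genes 4 fell and none rose, where 15.7% of all tested genes were called lower and 18.0% higher. The median log2 fold change was -0.11. With the replicate block 7 fell and 1 rose, where 22.5% of all tested genes were called lower and 23.3% higher. PLOD2, a collagen lysyl hydroxylase, was at 31.1 ± 5.61 CPM in ASO-L1 and 57.2 ± 4.42 CPM in SO-L1 libraries (SD, n = 3 each), a log2 fold change of -0.88 ± 0.12. FN1 (fibronectin, -0.28 ± 0.08), LAMB1 (-0.24 ± 0.07) and LAMA5 (-0.19 ± 0.07), both laminin chains, fell by less. COL4A1 (-0.05 ± 0.07), COL4A2 (-0.07 ± 0.08) and SPARC (-0.02 ± 0.08) were not called. Without ASO-L1 replicate 1 or SO-L1 replicate 3 only 1 gene of the list was called.

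**Figure D4:**
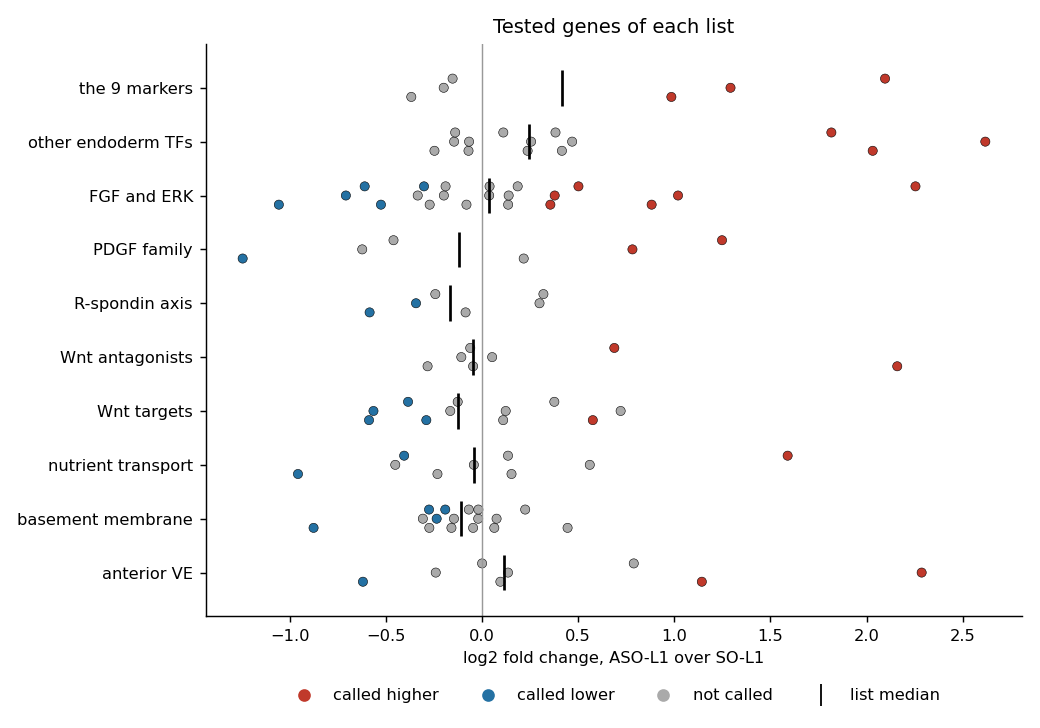
Log2 fold change, ASO-L1 over SO-L1 (horizontal axis), of each tested gene in the 9 markers and in 9 lists of related genes (rows), coloured by call, with the list median as a black bar (VE, visceral endoderm; TFs, transcription factors). Called increases of about 2 or more stand alone in several lists, such as HHEX at 2.62 and CER1 at 2.29, while list medians lie between -0.16 and 0.42.

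Of 21 tested genes of FGF signalling 6 were higher and 5 lower. The 5 lower were ligands (FGF4, FGF2), receptors (FGFR2, FGFR3) and the RAS exchange factor SOS1, and the 6 higher were ERK-induced or feedback genes (DUSP4, DUSP6, SPRY2, SPRY4, ETV1, IL17RD). FGF4 was at 23.9, 14.6 and 21.7 CPM in ASO-L1 and 42.5, 37.8 and 45.2 CPM in SO-L1 libraries (-1.06 ± 0.16). The receptor genes FGFR3 (-0.71 ± 0.10) and FGFR2 (-0.53 ± 0.12) fell, as did SOS1 (-0.61 ± 0.11). Among the genes that were higher were DUSP4, a phosphatase that acts on ERK, at 0.88 ± 0.19, DUSP6, another, at 2.25 ± 0.50 and the inhibitor SPRY4 at 1.02 ± 0.25. DUSP6 was at 1.32, 3.07 and 1.62 CPM in ASO-L1 and 0.288, 0.814 and 0.196 CPM in SO-L1 libraries. It passed the read filter only through the ASO-L1 libraries, so its call adds no support to the count. ETV4 (0.04 ± 0.06) and ETV5 (0.04 ± 0.10), further ERK-induced genes, were not called. Feedback genes not called in the main fit were SPRY1 (-0.27 ± 0.11), SPRED2 (-0.19 ± 0.09) and SPRED1 (0.18 ± 0.07). With the replicate block SPRY1 was called lower (adjusted p = 0.0477 by edgeR) and SPRED1 higher (0.0393). Without SO-L1 replicate 1 or 3 only 2 of the list were called higher, and without replicate 1 of both groups none.

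All 6 other genes of the PDGF family were tested. PDGFB was at 4.00, 5.44 and 2.95 CPM in ASO-L1 and 1.73, 2.03 and 1.44 CPM in SO-L1 libraries (1.25 ± 0.25), and PDGFC at 5.57, 3.90 and 5.49 CPM in ASO-L1 and 10.1, 14.6 and 11 CPM in SO-L1 libraries (-1.25 ± 0.18). Both sets of libraries were apart, in opposite directions. PDGFA, which encodes the main ligand of PDGFRA, had 0.22 ± 0.11 and was not called (adjusted p = 0.137). PDGFRB, the other receptor, was called higher at 0.78 ± 0.25 (adjusted p = 0.0359), a call lost without any single library but ASO-L1 replicate 3, where the adjusted p ran from 0.0584 to 0.122, and by DESeq2 (0.0537). With the replicate block all 6 were called, 3 higher and 3 lower.

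On the R-spondin side LGR4, a receptor for R-spondins, fell by 0.34 on the log2 scale. RSPO4 was called lower (-0.59 ± 0.20, adjusted p = 0.0428), a call lost in 10 of 15 alternatives, and none of 6 tested genes rose. The ligase genes ZNRF3 (-0.09 ± 0.08) and RNF43 (-0.24 ± 0.24), whose products remove Frizzled receptors, were not called. Among secreted Wnt antagonists 2 of 7 rose, DKK1 at 2.19, 4.69 and 1.66 CPM in ASO-L1 and 0.448, 1.1 and 0.391 CPM in SO-L1 libraries (2.16 ± 0.51), and SFRP2, which belongs to the same protein family as FRZB (0.69 ± 0.16). Both calls were lost without SO-L1 replicate 1 (adjusted p = 0.0516 and 0.0508 in that order), and that of DKK1 also without SO-L1 replicate 3 (0.0534). Among 11 Wnt target genes 4 fell, led by CCND1 (-0.57 ± 0.09), and 1, MYC, rose (0.58 ± 0.15). AXIN2, a common readout of the pathway, was at 57.1 ± 6.51 CPM in ASO-L1 and 69.8 ± 6.96 CPM in SO-L1 libraries (SD, n = 3 each) with overlap between the groups and a call at an adjusted p of 0.0471 by edgeR. Without SO-L1 replicate 1 only 2 of these targets were called, both lower.

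Markers of other cell types moved as well, and their part in the endoderm results was not tested. Over all tested genes 18.0% were called higher and 15.7% lower. Of 11 tested mesendoderm and definitive endoderm genes, a list that shares GATA6 and SOX17 with the 9 markers, 6 were higher and none lower. SOX17, HHEX and LHX1, among these 6, passed the read filter only through the ASO-L1 libraries, so their calls add no support to the count. Its summed level was 106 to 168 CPM in ASO-L1 and 57.2 to 72.3 CPM in SO-L1 libraries, to which CER1 gave 53.9 to 101 CPM in ASO-L1 and 9.95 to 21.9 CPM in SO-L1 libraries. CXCR4, a chemokine receptor of definitive endoderm, was at 5.04, 12.8 and 4.16 CPM in ASO-L1 and 1.70, 2.28 and 1.3 CPM in SO-L1 libraries. Of 11 tested trophectoderm genes 4 rose, with sums of 461 to 511 CPM in ASO-L1 and 416 to 457 CPM in SO-L1 libraries. CDX2, among these 4, also passed the read filter only through the ASO-L1 libraries. Of 7 amnion genes 2 rose and 1 fell, with sums of 30.5 to 46.2 CPM in ASO-L1 and 25.6 to 30.3 CPM in SO-L1 libraries. Extraembryonic mesoderm genes summed to 544 to 635 CPM in ASO-L1 and 399 to 409 CPM in SO-L1 libraries, with 1 of 10 higher (VIM) and 1 lower. To these sums VIM alone gave 282 to 360 CPM in ASO-L1 and 114 to 151 CPM in SO-L1 libraries. Fibroblast genes summed to 694 to 837 CPM in ASO-L1 and 557 to 634 CPM in SO-L1 libraries, with 5 of 12 higher and FAP at 0 in every library. ASO-L1 replicate 2 had the highest of the sums in each of these lists.

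Hepatocyte genes, since liver also makes AFP and APOA1, were followed too and summed to 17.6 to 19.9 CPM in ASO-L1 and 20 to 24.9 CPM in SO-L1 libraries. None of 3 tested was called (1, lower, with the replicate block), FGB had no read and ALB had 1 in all. Naive markers summed to 531 to 540 CPM in ASO-L1 and 581 to 637 CPM in SO-L1 libraries, with 2 of 13 higher and 5 lower. Core pluripotency genes summed to 5090 to 5990 CPM in ASO-L1 and 6080 to 6630 CPM in SO-L1 libraries, with ASO-L1 replicate 2 the lowest, and 1 of 12, PRDM14, was called, lower. With the replicate block 7 of the 12 were called, all lower, POU5F1 and NANOG among them. The 9 endoderm markers together summed to 12.1 to 17.4 CPM in ASO-L1 and 10.4 to 10.9 CPM in SO-L1 libraries.

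**Figure D5:**
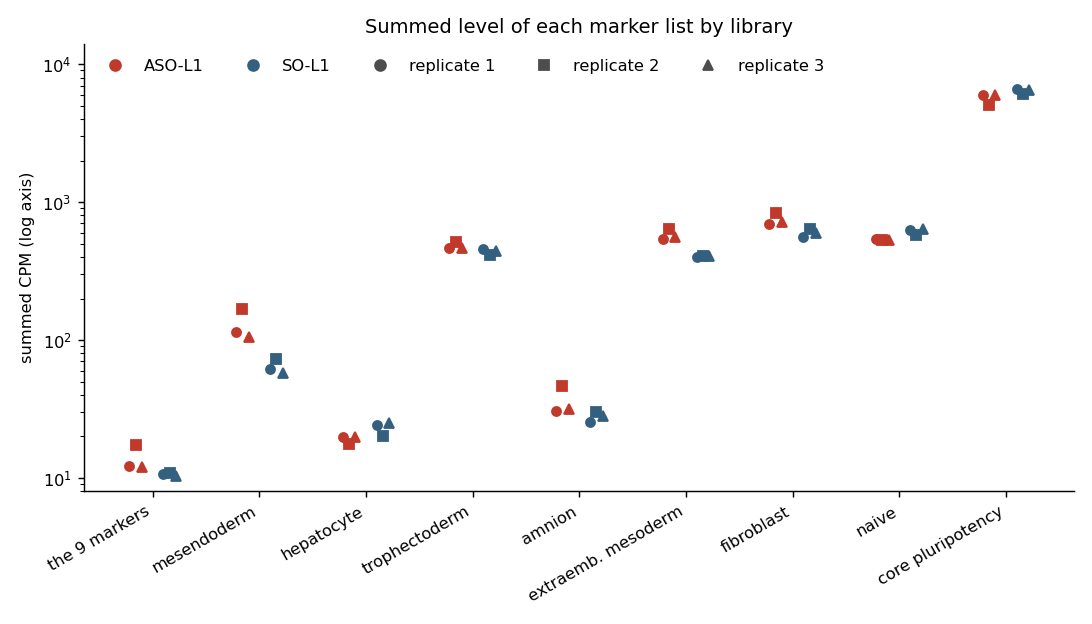
Summed CPM (vertical axis, log scale) of the 9 endoderm markers and of 8 marker lists in each ASO-L1 (red, left of each pair) and SO-L1 library (blue, right), with the replicate number as the point shape; sums are to be compared within a list, since genes differ in length. The sums of the mesendoderm list lie at 106 CPM or above in ASO-L1 and at 72.3 CPM or below in SO-L1 libraries.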

How the data were processed

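Directional poly(A) RNA libraries of 6 samples, 3 per group, were analysed. The authors deposited raw read counts per gene symbol, with duplicates removed per the file title. The submitters' processing notes name the build hg19 and the tools Subread 1.5.0, featureCounts, TopHat2 2.0.13 and Trim Galore 0.4.0, without roles. For the annotation, strand setting and multiply mapped reads, nothing is given in the sources used here. Without molecular identifiers, removing duplicates lowers the counts of abundant genes most. A table that the authors deposited holds log2 normalised values after a batch correction, per the file title, and was not tested. The authors also deposited their own comparison, with a fold change and an average on the log2 scale, scores (t and log-odds) and raw and adjusted p-values, from a model that no source states.

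Genes of the count table were filtered with filterByExpr (minimum count 10, minimum total 15) of edgeR 4.0.16, scaled by TMM and tested with the robust quasi-likelihood test without a replicate term. An SE is the unshrunken log2 fold change over the square root of F. Tests were first tested on simulated data. The common biological coefficient of variation was 10.2%. Alternatives were a replicate block, RLE factors, no filter, a CPM above 1 in 3 libraries, DESeq2 1.42.0, limma-voom (limma 3.58.1) and omission of libraries. Deviations from the group means correlated at 0.102, 0.377 and 0.211 between libraries of the same replicate number, which the titles give, so the numbers were treated as pairs in the block, although ASO-L1 replicate 1 correlated more with SO-L1 replicate 3 (0.162). The block changed no call among the members. No pair of replicates agreed within sampling noise (chi-square per degree of freedom of 2.05 to 24.5).

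The members and lists were chosen with earlier results of these data known. Named in addition to the members were up to 4 genes with the smallest p of each list, direct ligands and receptors, marker genes, and for each called member the 2 genes of nearest profile, with unnamed clones, small RNAs and genes of FAM, KIAA, LINC, LOC or open reading frame names left out. Other list members are named as examples that were not called, chosen after their values were seen. Some genes of the lists are not reported here by name.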

Additional observations from a re-analysis of the deposited data

How the results depend on the processing

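The number of genes called was 5684 and ran from 2975 to 5322 without a single library (2975 without SO-L1 replicate 3, 3166 without SO-L1 replicate 1), and was 1183, 7197 and 2820 without replicates 1, 2 and 3 of both groups. Of the 9 members 3 were called, 1 to 3 without a single library (AFP alone without SO-L1 replicate 3) and 1 to 3 without a replicate number (AFP alone without number 1). GATA4 ran from -0.44 to 0.14, GATA6 from 0.79 to 1.51 (adjusted p = 0.00842 to 0.0765) and SOX17 from 1.58 to 2.52 (0.00784 to 0.0737) on the log2 scale without single libraries. Without replicate 1 of both groups GATA6 was at 1.68 and SOX17 at 1.93 (1.925), and AFP without replicate 3 of both at 0.92, all without a call. HNF4A was called with no filter (1.27), and RNF43 ran from -0.41 to 0.08842 without single libraries. PDGFRA and FRZB kept their direction and were not called in any of 15 alternatives.

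Counts of list genes called are given as the main count, the range without single libraries and the range without a replicate number of both groups. They were 3, 2 to 4 and 1 to 4 for endoderm factors, 11, 7 to 12 and 3 to 17 for the FGF list, 3, 2 to 3 and 1 to 3 for the PDGF family (6 with the replicate block), 2, 1 to 2 and 0 to 1 for the R-spondin list (1 with no filter and 1 by DESeq2), 2, 0 to 3 and 0 to 3 for Wnt antagonists, 5, 2 to 6 and 1 to 6 for Wnt targets, 3, 2 to 4 and 0 to 4 for transport genes (5 with the block), 4, 1 to 4 and 1 to 7 for basement membrane (8 with the block, 7 with no filter) and 3, 3 to 4 and 2 to 8 for anterior visceral endoderm. The causes were not tested, and the fits with libraries left out also held fewer libraries. With RLE factors and limma-voom the same 3 members were called. At these depths the read counts of HNF4A, APOA1 and RSPO3, 66, 41 and 17 in all libraries, limit what can be measured.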

Other observations

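Some genes of neighbouring lineages had too few reads for the main test and are given as reads. FOXF1, a forkhead factor of extraembryonic and lateral mesoderm, had 4, 39 and 7 reads in ASO-L1 and 2, 2 and 1 reads in SO-L1 libraries. FOXA1, a forkhead factor of endoderm, had 6, 10 and 6 reads in ASO-L1 and 2, 5 and 0 reads in SO-L1 libraries. TBX20, a T-box factor of mesoderm, had 6, 24 and 13 reads in ASO-L1 and 3, 7 and 10 reads in SO-L1 libraries. In each of these genes the highest library was ASO-L1 replicate 2, as it was for GATA6, SOX17 and HNF4A. These genes were chosen after their values were seen. With no read filter, edgeR gave FOXF1 a log2 fold change of 3.43 (adjusted p = 1.82e-06), with 39 of its 50 ASO-L1 reads in replicate 2, TBX20 one of 1.25 (0.0620) and FOXA1 one of 1.73 (0.0874).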
